A study of Mus musculus with 2 samples.

Results

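Mir451a, Mir144 and Mir486 are the 3 miRNA genes described here, chosen by name from the 1973 gene rows of microRNA sequencing of mouse fetal liver. They are known as miRNAs of the erythroid lineage, the cells that become red blood cells. The series held 1 group of 2 libraries, each from total RNA of liver pooled from healthy male and female B6NCrl embryos at embryonic day 16.5. Per the labels 41 embryos were pooled for replicate 2; they state no number for replicate 1. There was no treatment, mutant or other tissue, so the questions were how abundant the 3 genes were, how they stood to each other and how far the libraries differed. The library of replicate 1 held 5930074 counts on the annotated strand of the miRNA genes, and that of replicate 2 held 5102289. Mir122, the defining miRNA of hepatocytes, ranked first in both; a miRNA table holds no globin or other red cell messenger RNA against which to check the erythroid name of the trio.

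MicroRNAs are cut from hairpin precursors, and the short mature strand guides an Argonaute protein to messenger RNAs that pair with its seed, bases 2 to 8. In the fetus the liver is a main site of red cell formation, and mouse Mir144 and Mir451a are made from 1 transcript that the erythroid factor GATA1 switches on. Mir451a is an exception among miRNAs: its hairpin is too short for Dicer and is cut by Ago2 itself. miR-451 restrains the 14-3-3 protein Ywhaz and protects red cells from oxidative stress. Mir486 lies in Ank1, the gene of the red cell membrane skeleton protein ankyrin 1. It is also known from muscle.

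The mature strands are shown because the seed sets which messenger RNAs each can pair with. They are RefSeq sequences on GRCm38.p6, written 5′ to 3′ with the seed in capitals. Mir486 is named only.
miR-451a: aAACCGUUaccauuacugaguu
miR-144-3p: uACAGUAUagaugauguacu
miR-144-5p: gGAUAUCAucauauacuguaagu
The 3 seeds differ from each other, and none was the seed of another of the 1738 mature miRNA entries in the table, which is not complete. Mir451a and Mir144, although made from 1 transcript, thus carry different seeds. On bases 2 to 7 alone, miR-144-3p matched 1 other entry, miR-101a-3p. miR-101b-3p, of the same family, holds the same 6 letters 1 base further in. The letters begin at base 1 in miR-101c, miR-199a-3p and miR-199b-3p, at base 12 in miR-503-5p and at base 16 in miR-679-3p. For miR-144-3p and the Mir101 strands nearest to it, the letters ACAGUA are in capitals.
miR-144-3p: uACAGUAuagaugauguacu
miR-101a-3p: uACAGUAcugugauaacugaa
miR-101b-3p: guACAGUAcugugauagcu

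The hairpins show how differently the cluster partners are built. Mature strands are in capitals. The lengths are those of the annotated hairpin genes, and cutting by Dicer or Ago2 was not tested.
Mir451a: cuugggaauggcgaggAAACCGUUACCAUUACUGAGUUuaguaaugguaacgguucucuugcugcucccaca
Mir144: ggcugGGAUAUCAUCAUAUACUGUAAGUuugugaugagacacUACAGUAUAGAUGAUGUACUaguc
Mir451a (ENSMUSG00000070065.1) lies on the plus strand at chr11:78073170-78073241 of mm10, and Mir144 (ENSMUSG00000065401.1) at chr11:78073005-78073070, with 99 bases between them. Neither overlaps a protein-coding gene; Eral1, on the other strand, lies 134 bases beyond Mir451a. In the structure predicted by RNAfold, Mir451a had 30 base pairs and Mir144 27, with fold energies of -43.3 and -28.6 kcal/mol. The longest unbroken stem was 17 pairs in Mir451a and 9 in Mir144. The single mature strand of Mir451a runs from base 17 to base 38 of the 72-base hairpin and takes in all 4 bases of the predicted loop. In Mir144 the 5′ strand (bases 6 to 28) and the 3′ strand (bases 43 to 62) flank a 6-base loop, and neither strand enters it. The counts are per hairpin gene, so reads of the 2 strands of Mir144 were not separated here.

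**Figure D1:**
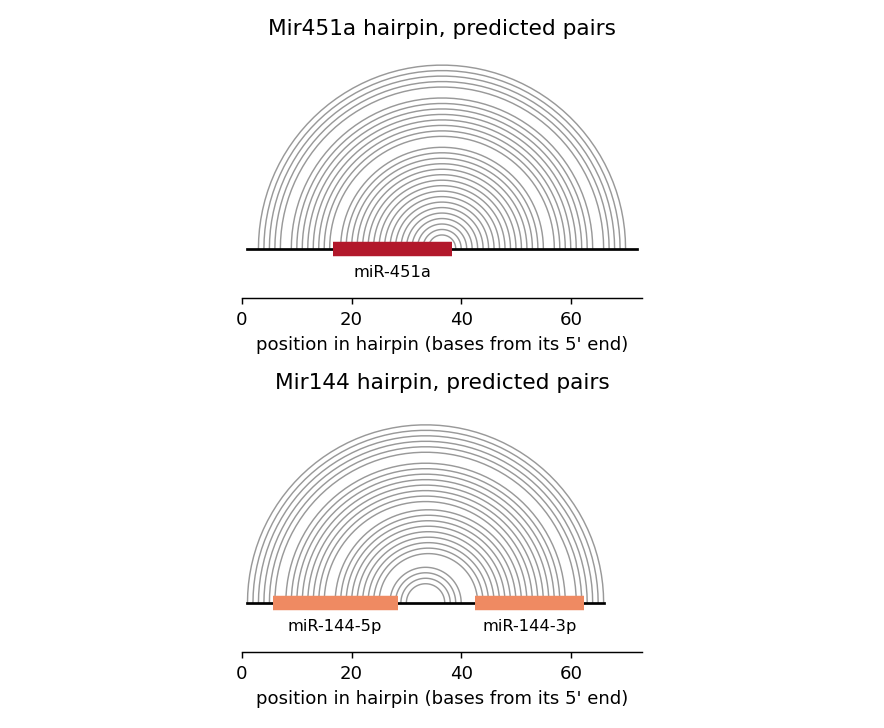
Predicted base pairs of the Mir451a and Mir144 hairpins; the horizontal axis is the position in bases from the 5′ end, each arc joins 2 paired bases and the thick bar marks a mature strand. The miR-451a strand reaches through the loop, from base 17 to base 38, while the miR-144 strands lie on either side of it.

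Mir486 (ENSMUSG00000070084.3) lies on the plus strand of chromosome 8 at 23142555 to 23142682. It sits inside Ank1 on the same strand, overlaps none of its annotated exons and so is intronic; it also lies in an intron of the antisense RNA gene Gm15816. On the other strand it is overlapped by a second miRNA gene, Mir3107 (23142573 to 23142662), which RefSeq also lists as mir-486b. Mir451a likewise has an opposite-strand gene, Mir451b, over its whole length. Neither Mir3107 nor Mir451b had a row of its own in the count tables.

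All 3 genes were detected in both libraries, at levels far apart. Levels in CPM are counts scaled to an equal total of sense-strand counts in each library; reads of mature miRNAs do not grow with hairpin length, so levels were not divided by it. Mir451a had 97649 counts in replicate 1 and 89231 in replicate 2, which is 16467 and 17488 CPM. Mir144 had 40784 and 46962 counts, or 6877 and 9204 CPM. Mir486 had 4310 and 2344 counts, or 727 and 459 CPM. The lower Mir451a value was above the higher Mir144 value, and the lower Mir144 value was above the higher Mir486 value, so the order held in both libraries. Reads that align to several places are in no gene count, so the Mir486 level may be too low, given the overlapping Mir3107. The means were 16978 ± 722 CPM for Mir451a, 8041 ± 1645 CPM for Mir144 and 593 ± 189 CPM for Mir486 (SD, n = 2). In whole liver, fewer cells of a type and less RNA per cell cannot be told apart. A bias of the library method between sequences would be shared by both libraries and is not in these SDs.

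**Figure D2:**
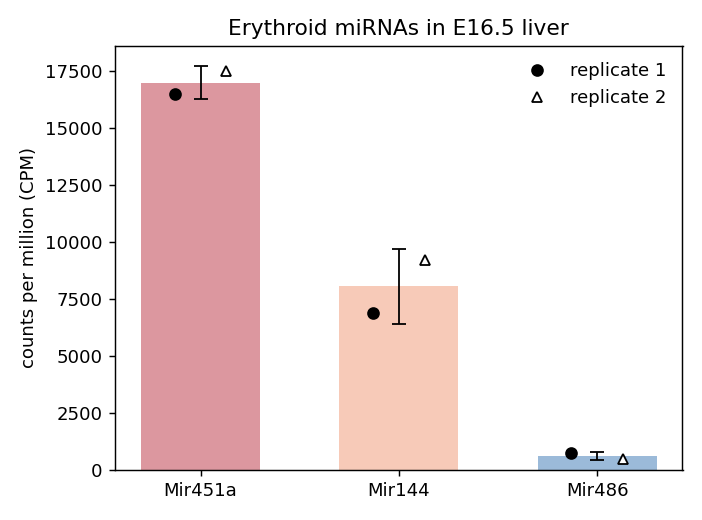
Level of each miRNA gene in CPM; bars are means of 2 libraries, error bars the SD, and points the libraries. Mir451a at 16978 CPM stood above Mir144 at 8041 CPM and Mir486 at 593 CPM in each library.

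The share of all sense-strand counts gives the same levels with their counting error. Mir451a held 1.65% of the replicate 1 library, with a 95% Clopper-Pearson interval of 1.64% to 1.66%. In replicate 2 it held 1.75% (1.74% to 1.76%). Mir144 held 0.688% (0.681% to 0.694%) and 0.920% (0.912% to 0.929%). Mir486 held 0.0727% (0.0705% to 0.0749%) and 0.0459% (0.0441% to 0.0478%). For each gene the intervals of the libraries did not meet. They cover counting error within 1 library only. The sources name no use of molecular identifiers, so reads may be PCR copies and the intervals too narrow.

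Set against Mir122, the hepatocyte miRNA and the most abundant gene, there were 77.2 counts of Mir451a per 1000 counts of Mir122 in replicate 1 and 81.5 in replicate 2. The same figure was 32.2 and 42.9 for Mir144 and 3.41 and 2.14 for Mir486. These values do not depend on the library total. On this scale, too, Mir144 was lower and Mir486 higher in replicate 1.

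By rank, Mir451a was 14th of the 1973 rows in both libraries. The ranks leave out reads that align to several places, so genes with near-identical copies may rank too low. Mir144 was 36th in replicate 1 and 28th in replicate 2, and Mir486 100th and 118th. All 4 nearest genes in rank of each overlapped its range over the libraries, so none differed from it beyond that spread. Within the libraries, Mir223 was above Mir451a, Mir143 below Mir451a and Mir541 above Mir144 in both, and the other neighbours changed sides. The nearest to Mir451a were Mir223 (17149 ± 537 CPM), a granulocyte and monocyte miRNA, Mir130a (17114 ± 970), Mir127 (16637 ± 2231) and Mir143 (16193 ± 1603). For Mir144 they were Mir541 (8926 ± 554), Mir15a (8882 ± 81.1), Mir382 (7883 ± 729) and Mir101b (7757 ± 588). For Mir486 they were Mir16-2 (600 ± 79.4), the hypoxia-induced Mir210 (594 ± 121), Mir467e (583 ± 18.9) and Mir485 (581 ± 83.1 CPM).

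**Figure D3:**
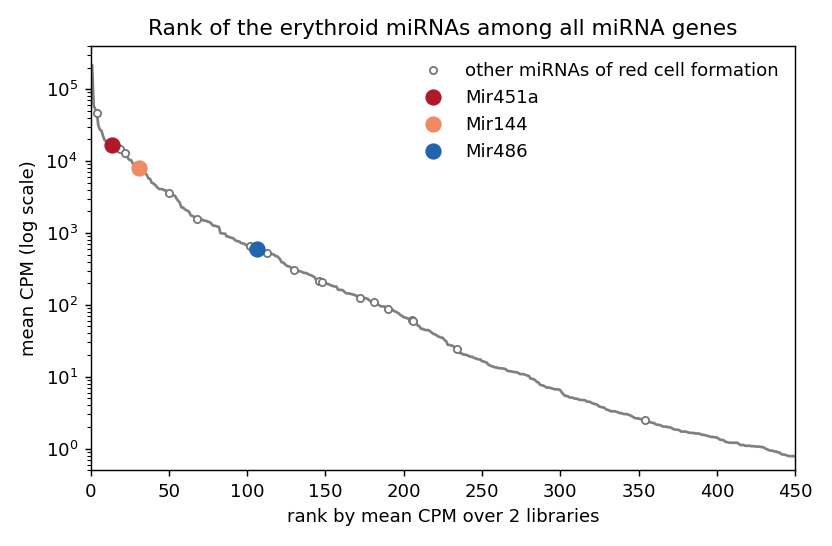
Mean CPM (log scale) against rank for miRNA genes; filled points are the 3 erythroid genes and open points other miRNAs with a known part in red cell formation. Mir451a and Mir144 sit on the steep upper part of the curve at 16978 and 8041 CPM, and Mir486 at 593 CPM.

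Within the trio, Mir451a made up 68.4% of the counts in replicate 1 and 64.4% in replicate 2. Mir144 made up 28.6% and 33.9%, and Mir486 3.02% and 1.69%. The difference in the Mir144 part, replicate 1 minus replicate 2, was -5.33 percentage points, and the parts of both other genes were larger in replicate 1. Summed, the 3 genes held 142743 and 138537 counts.

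The cluster partners were not at equal levels. Mir451a exceeded Mir144 by 1.26 on the log2 scale in replicate 1 and by 0.93 in replicate 2 (counting SEs 0.01 each; mean 1.09 ± 0.24, SD, n = 2). The 0.33 between the libraries is far above the counting error. With 2 libraries no exact test over samples can pass a threshold of 0.05, so none is given. Mir451a exceeded Mir486 by 22.7-fold and 38.1-fold, and Mir144 exceeded Mir486 by 9.46-fold and 20.0-fold, in replicates 1 and 2. Reads that fit Mir486 and Mir3107 equally would be in no gene count, so the folds over Mir486 may be too high.

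Mir101a and Mir101b, whose strands are printed above beside miR-144-3p, stood at very different levels. Mir101a, on chromosome 4, had 499 and 461 counts (84.1 and 90.4 CPM), and Mir144 exceeded it by 81.7-fold and 102-fold. Mir101b, on chromosome 19, had 43535 and 41702 counts (7341 and 8173 CPM). It was above Mir144 in replicate 1, with 1.07 counts for each of Mir144, and below it in replicate 2, with 0.888. These hairpins share 4.55% and 3.75% of their 18-base words with another listed gene, whereas Mir451a and Mir144 share none. Reads that align to several places are in no gene count, so the Mir101 levels may be too low. Of the other genes with ACAGUA in a mature strand, Mir503 was at 431 ± 41.9 CPM, Mir679 at 293 ± 44.9, Mir199b at 95.1 ± 9.14, Mir199a-2 at 11.0 ± 5.01 and Mir199a-1 at 0.476 ± 0.435 CPM, all below Mir144, and Mir101c had no row.

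The 3 genes did not move together between the libraries. A two-sided exact binomial test compared the libraries gene by gene over all 440 genes with 10 or more counts; it compares these libraries, not conditions, and covers counting error only. All 3 genes passed at an adjusted p of 0.05, in a background where 44.5% of the 440 genes passed, and 79.2% of the 183 genes at 100 CPM or more. At these depths passing is therefore common and says little about a gene. Mir451a was lower in replicate 1 than in replicate 2 by a log2 ratio of -0.09 (counting SE 0.01, exact adjusted p = 1.03e-37). Mir144 was lower in replicate 1 by a log2 ratio of -0.42 (counting SE 0.01), with an exact adjusted p below 2.23e-308, the smallest number the computation holds. Mir486 was higher in replicate 1, with a log2 ratio of 0.66 (counting SE 0.04, 1.58-fold, exact adjusted p = 6.67e-73).

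The spread of all genes puts these sizes in scale. Over the 183 genes at 100 CPM or more, the log2 ratio had an SD of 0.47 and a median size of 0.20. Mir486 lay 1.42 of these SDs above 0 and had the 4th largest ratio by size. For Mir144 the value was -0.903 SDs, at place 29, and for Mir451a -0.187 SDs, at place 138. The SD rests largely on Mir215, singled out after its values were seen, whose count was 75 in replicate 1 against 1920 in replicate 2, a log2 ratio of -4.89. Without it the SD was 0.29, and Mir486 lay at 2.31, Mir144 at -1.47 and Mir451a at -0.303 SDs. The common biological coefficient of variation, the spread between libraries beyond counting error that edgeR estimated over the 440 tested genes, was 0.229. It corresponds to an SD of the log2 ratio of 0.47. By size, the ratios of Mir451a and Mir144 scaled to library totals were smaller than that SD, and the ratio of Mir486 was larger. The coefficient itself was estimated after TMM scaling. With that scaling the ratio of Mir144 was -0.50, larger in size than the SD, so its side of the SD depends on the scaling. Without Mir215 the coefficient was 0.192 and the SD 0.39, and the ratio of Mir144 scaled to library totals was then larger too.

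**Figure D4:**
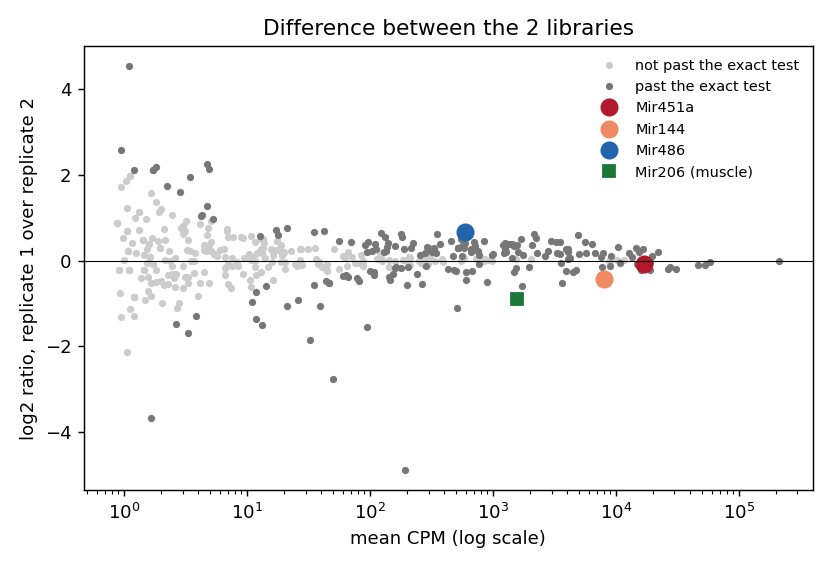
Log2 ratio of replicate 1 over replicate 2 against mean CPM (log scale) for 440 tested genes; dark grey points passed the exact test and light grey ones did not. Mir486 lies at 0.66, Mir451a at -0.09 and Mir144 at -0.42, and Mir206, a muscle miRNA, at -0.89.

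Genes of 100 CPM or more with the most similar ratio over the 2 libraries were Mir1981, Mir340 and Mir126a for Mir451a (log2 ratios of -0.09 each). For Mir144 they were Mir181b-2 (-0.44), Mir301 (-0.45) and Mir6236 (-0.39). For Mir486 they were Mir3074-1 (0.66), Mir328 (0.63) and Mir674 (0.63). This likeness rests on 1 ratio per gene, from 2 libraries.

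Because Mir486 is also a muscle miRNA, the muscle markers were read beside it. Their summed level was 1302 CPM in replicate 1, against 2260 CPM in replicate 2, opposite in direction to Mir486. Nearly all of that difference was Mir206, at 1104 CPM in replicate 1 against 2050 CPM in replicate 2; the rest of the list summed to 199 CPM against 210 CPM. Of 5 tested muscle genes, 0 were higher and 2 lower in replicate 1 past the exact binomial test, against 27% and 17.5% of all tested genes. These 2 were Mir206 (log2 ratio -0.89) and Mir208b (44.3 ± 10.5 CPM, -0.49). Mir499 was at 144 ± 1.14 CPM, with a log2 ratio of 0.02, and Mir133b at 13.5 ± 1.90 CPM, with a ratio in the direction of Mir486 (log2 0.28) that did not pass. Mir133a-1 and Mir133a-2 had no count, and Mir1a-1 had 0 and 1, but these miRNAs have near-identical copies and their reads may be in the multimapping tally. The part of muscle RNA in the Mir486 level was not tested.

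Reads on the opposite strand set Mir486 apart from the cluster. Its row held 274 opposite-strand counts in replicate 1 and 159 in replicate 2. They made up 5.98% of the row in the first library, with a 95% Clopper-Pearson interval of 5.31% to 6.70%, and 6.35% in the second (5.43% to 7.38%). The intervals overlapped. The Mir451a row held 2 opposite-strand counts in replicate 1 and 0 in replicate 2, and the Mir144 row 0 in both. A count of 0 allows up to 3 counts, which is 0.506 CPM in the first library and 0.588 CPM in the second. The opposite-strand counts of both cluster rows were thus under that limit. Among 189 genes with 1000 or more counts on their own strand over both libraries, the median share on the opposite strand was 0%. Of these, 3 genes had more than 1%, and Mir486 had the 2nd highest. This filter leaves out rows read mainly on the opposite strand. One is Mir299b, with 48 and 45 counts on its own strand and 23873 and 17475 on the other. Opposite-strand counts over all rows came to 524695 in replicate 1 and 456675 in replicate 2.

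The opposite-strand reads of Mir486 were a second count at this locus. They stood at 46.2 CPM in replicate 1, against 31.2 CPM in replicate 2, a log2 ratio of 0.57 (counting SE 0.14), which is the direction of Mir486 itself. In the exact binomial test over the 23 rows with 10 or more such counts its adjusted p was 0.000189, and 14 of the 23 rows passed. Which of these reads belong to Mir3107 was not tested. Reads that fit both genes equally would be in the multimapping tally, which held 28.1% and 28.2% of all reads, so the level of Mir486 is uncertain and may be too low.

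**Figure D5:**
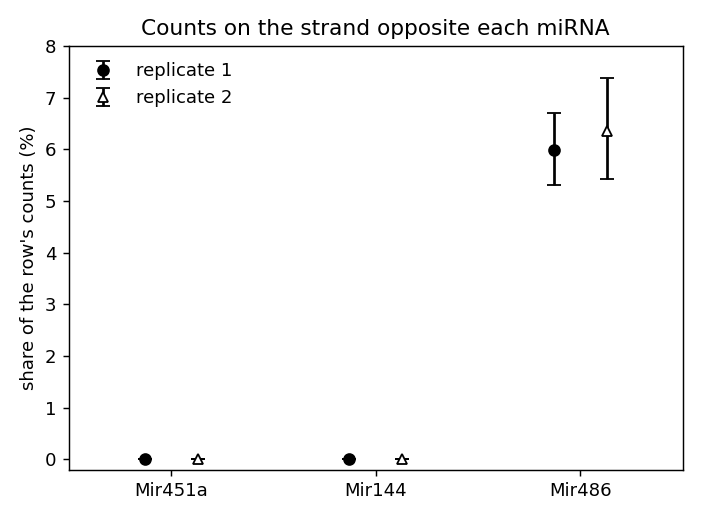
Share of each row's counts on the strand opposite the miRNA, in percent; points are libraries and bars 95% Clopper-Pearson intervals. Mir486 had 5.98% and 6.35%, while Mir451a and Mir144 had 2 opposite-strand counts in all.

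Other miRNAs known to act in red cell formation were listed, of which 22 of 25 had a row. Their median level was 558 CPM, beside 38.3 CPM over all tested genes. A level of 100 CPM in both libraries was reached by 16 of 22, while 183 of the 440 tested genes had a mean of 100 CPM or more. The list was chosen with earlier results of these data known, so its higher level shows nothing about such miRNAs as a class. Of the 22, 5 were higher and 8 lower in replicate 1 past the exact binomial test, against 27% and 17.5% of all tested genes, and 9 did not pass. Their median log2 ratio was -0.04, beside 0.08 over all tested genes. The endothelial and progenitor miRNA Mir126a led the list at 47008 ± 2175 CPM, followed by Mir223 (17149 ± 537 CPM), which in human cells holds back the erythroid factor LMO2, and Mir30a (15944 ± 1713 CPM).

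Within each library, Mir451a had fewer counts than Mir126a and Mir223 and more than all other listed genes. Mir15a (8882 ± 81.1 CPM) and Mir16-1 (3567 ± 114 CPM), which act on MYB in human cells, had log2 ratios of -0.02 and -0.07; Mir15a did not pass the test and Mir16-1 was lower in replicate 1. Mir221 (308 CPM, log2 ratio 0.09) and Mir222 (126 CPM, 0.02) repress KIT in early human erythroid cells, and neither passed. Mir155 at 87.3 CPM and Mir150 at 24.5 CPM, miRNAs of lymphoid and myeloid cells that are low in late erythroid cells, were below all 3 erythroid genes and did not pass. Both neighbours of Mir486 in level from this list passed, in opposite directions. Mir210 stood at 680 CPM in replicate 1, against 509 CPM in replicate 2 (log2 ratio 0.42), and Mir16-2 at 544 CPM against 656 CPM (log2 ratio -0.27). miR-16 and some others of this list have more than 1 genomic copy, and their levels may be too low for the same reason as those of Mir101.

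Markers of the other cells of fetal liver give the setting. The 3 erythroid genes held 2.41% of the counts in replicate 1 and 2.72% in replicate 2, the leukocyte list 1.80% and 1.87%, and the stem and progenitor list 4.30% and 4.18%. Of the counts of these 3 lists together, the erythroid genes held 28.3% and 31.0%. That is not an erythroid share of blood cells. The lists have 3, 6 and 9 genes with a row, and which cells their reads came from was not tested. The hepatocyte list held 22.0% and 22.2%, the endothelial gene Mir126a 4.55% and 4.85%, and the mesenchymal list 1.61% and 1.82%. In replicate 1, 0 of 5 hepatocyte genes were higher and 4 lower past the exact test; for 6 leukocyte genes the counts were 0 and 1, for 9 stem and progenitor genes 5 and 3, for the endothelial gene 0 and 1, and for 4 mesenchymal genes 1 and 3. Over all tested genes 27% were higher and 17.5% lower, and 79.2% passed in either direction at 100 CPM or more. Mir142, a leukocyte marker, had no row of its own and is not in these sums. Each list's summed share differed between the libraries by a log2 ratio of less than 0.2 in size except muscle, at -0.80. Several of these sums rest mainly on 1 gene. In replicate 1, Mir122 held 213274 of 219895 CPM of the hepatocyte list. Mir223 held 16769 of 17991 CPM of the leukocyte list, and Mir143 15059 of 16076 CPM of the mesenchymal list. Similar sums thus do not show that the other members, or the makeup of the pools, were alike. In the hepatocyte list the log2 ratio was -1.85 for Mir194-1 and 0.05 for Mir148a. How far the makeup of the pools bears on Mir144 and Mir486 was not tested.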

How the data were processed

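Small RNA from total RNA of fetal liver was sequenced in 2 libraries of 1 group; the labels state a size range below 30. The deposited values are raw read counts per miRNA gene, on assembly mm10 with GENCODE annotation M4 per the text deposited with them. The sources used here name neither the aligner nor the counter, nor any use of molecular identifiers. In all 1973 gene rows the first count column equalled the sum of the other 2. The stranded column with the larger total was used, and 4 tally rows were left out. Of 14129766 and 12186088 reads tallied in replicates 1 and 2, 42.0% and 41.9% were sense-strand gene counts and 28.1% and 28.2% multimapping; 1 count is worth 0.169 and 0.196 CPM. Names and coordinates came from GENCODE M21 by identifier (1894 rows matched), and sequences from RefSeq, which held 2 of the 3 members.

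Genes with 10 or more counts were tested with an exact conditional binomial test and Benjamini-Hochberg adjustment over all of them; ratios are replicate 1 over replicate 2 after adding 0.5 to each count. A quasi-likelihood test needs a contrast, and 1 group has none. The biological coefficient of variation came from edgeR 4.0.16 (R 4.3.3), and hairpins were folded with RNAfold 2.7.2. The exact test was run on simulated counts that had counting error only, so that run does not bear on the spread between these libraries. The labels call the libraries biological replicates, each with 1 technical replicate, and do not say whether the pools share litters; the p-values cover counting error only. The members and lists were chosen with earlier results of these data known. Named genes were the 2 neighbours in level on each side of a member, the 3 genes nearest in ratio, leading list members and listed genes cited beside a count, and miRNA genes within 10 kb. Alternatives covered strand, totals, scaling (TMM, DESeq2 1.42.0), filters, pseudocount and left-out replicates.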

Additional observations from a re-analysis of the deposited data

Results flagged for a closer look

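Reads on the strand opposite Mir486 lie outside the main measurement and stood above the 3 counts that a count of 0 allows. There were 274 in replicate 1 and 159 in replicate 2, on the strand of Mir3107. Which gene they came from was not tested.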

How the results depend on the processing

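Left-out replicates aside, 76 of 98 alternative values over 28 results were labelled unchanged, and 22 moved. Of these 22, 3 are the member ratios in SDs without Mir215, an alternative added after seeing the data. Unchanged meant the same direction and side of the threshold for a difference, or a value within 1 SD for a level or ratio. For a count of genes or the coefficient of variation it meant a value within a set fold of the main one. A count could thus stay unchanged while its split by direction changed. CPM depend on the total. Mir451a was at 15590 CPM irrespective of strand, 21598 CPM without Mir122 in the total, 21140 CPM over genes sharing no 18-base word and 7117 CPM of all reads tallied. For Mir144 the last 3 totals gave 10230, 10020 and 3370 CPM, and for the sum of the trio 32583, 31898 and 10735 CPM. Mir486 was at 249 CPM of all reads tallied, and the opposite strand of its row at 38.7 CPM. Irrespective of strand, summed levels were 202910 CPM for the hepatocyte list, 16863 for the leukocyte list, 38951 for the stem and progenitor list, 43180 for the endothelial gene and 115275 for the red cell formation list. With TMM or DESeq2 scaling, 2 leukocyte genes passed in place of 1. These scalings moved the log2 ratios of Mir451a to -0.16 (both), Mir144 to -0.50 and -0.49, and Mir486 to 0.59 (both). They also changed the split of called genes: 119 were higher and 77 lower in replicate 1 with the library total, and 98 and 96 with either scaling. In the stem and progenitor list, 5 higher and 3 lower became 2 and 5. Leaving out a replicate gave 16467 to 17488 CPM for Mir451a, 6877 to 9204 for Mir144 and 459 to 727 for Mir486; with 2 libraries these lie within 1 SD of the mean by construction and show nothing about stability. No paired analysis was possible because there is 1 group. The 2344 to 97649 counts behind each member make counting error small; the 2 libraries limit the precision.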
